A study of Monodelphis domestica with 9 samples.

Results

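The signals that control the formation of clasts (large cells with many nuclei that break down bone and mineralized cartilage) were followed through 6 genes of the opossum Monodelphis domestica: TNFRSF11A (RANK), TNFSF11 (RANKL), TNFRSF11B (OPG), CSF1R, CSF1 and IL34. They were chosen by name as the ligands, receptors and decoy of this step, and are 6 of the 22725 genes in the authors' deposited table. RNA was sequenced from tissue captured by laser where Meckel's cartilage (MC) joins the malleus, in pups at P16, P18 and P20 with 3 animals at each stage and no treatment. The tissue was described as MC and anterior malleus with little perichondrium around it, so that a value cannot be assigned to either element. The authors' table holds a mean for each of 3 conditions coded q1, q2 and q3, which neither the table nor the labels pair with the stages. The codes are therefore used here, and values are the authors' condition means in FPKM, a count of fragments scaled for the length of the transcript and for the size of the library.

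No value per animal was analysed here, so spread between animals, depth of each library and tests between conditions cannot be given, and each difference below is a difference between pooled means. Each value belongs to a TSS group, which gathers the transcripts of a gene with a common start of transcription, and the FPKM of a gene is the sum over its TSS groups. The 6 genes hold 10 of the 37421 TSS groups.

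RANKL is a membrane-bound ligand of the TNF family, made in mouse and human by osteoblasts, osteocytes and hypertrophic chondrocytes. It binds RANK on precursors of the macrophage lineage and drives them to fuse into clasts, while OPG is a secreted decoy that binds RANKL and keeps it from RANK. The same precursors need CSF1R, a receptor tyrosine kinase whose ligands are CSF1 and IL34, to survive and to multiply. These roles are background from mouse and human, and none was measured here.

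All values stand within a shift of the whole table. The median log2 ratio over tested TSS groups was 0.68 for q2 over q1 (14291 groups), 1.25 for q3 over q2 (10304 groups) and 2.08 for q3 over q1 (13424 groups). Of the tested groups 88.6% were higher in q3 than in q1. A ratio is therefore given as it is and also relative to this median, and a gene is counted as higher or lower where it lies at least 1 on the log2 scale above or below the median. The value of q3 was listed whether called or not for 28026 TSS groups (74.9%), which include those of every gene of the 6 except CSF1R.

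RANKL had the largest ratio of q3 to q1 among the 5 genes with both values. The authors' mean for TNFSF11 (gene identifier XLOC_462841, chromosome 7 from 166433290 to 166493953 in the coordinates of the authors' table, whose build no source used here names) was 0.726 FPKM in q1, 2.42 FPKM in q2 and 16.3 FPKM in q3. Its level was thus lowest in q1 and highest in q3, and the order of the 6 genes changed with it: RANKL was the fourth in q1 and q2 and the first of the 5 listed in q3. The ratio of q3 to q1 was 22.5-fold, a log2 ratio of 4.49, which lay 2.41 above the median of tested TSS groups. Of 9610 genes with an FPKM of at least 1 in q3 or q1, 2.55% had a larger ratio. Relative to the median, RANKL lay 1.05 above it for q2 over q1 and 1.5 above it for q3 over q2. The first of these distances is close to the limit of 1 and was 0.87 with ribosomal protein genes as the centre, 0.96 with a pseudocount of 0.1 FPKM and 0.52 with a pseudocount of 1 FPKM.

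OPG, the decoy, had the lowest level of the 6 in q1 and, among the 4 members of at least 1 FPKM with both values, came closest to RANKL in its ratio of q3 to q1. The authors' mean for TNFRSF11B (TSS212151, chromosome 3 from 391970572 to 392013466) was 0.333 FPKM in q1, 1.39 FPKM in q2 and 5.0 FPKM in q3. Its ratio of q3 to q1 was 15.0-fold, a log2 ratio of 3.91 that lay 1.83 above the median, and 4.41% of genes had a larger one. For q2 over q1 OPG lay 1.38 above the median and for q3 over q2 only 0.60 above it. Because its level in q1 is so low, a pseudocount of 1 FPKM brought the distance for q3 over q1 to 0.76 and that for q2 over q1 to 0.37.

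RANK, the receptor, moved with the whole table. The authors' mean for TNFRSF11A (TSS208612, chromosome 3 from 142009606 to 142135742) was 1.49 FPKM in q1, 2.52 FPKM in q2 and 4.69 FPKM in q3. The log2 ratio of q3 to q1 was 1.65, which lay at -0.43 relative to the median, and 60.1% of genes had a larger ratio. For q2 over q1 RANK lay 0.07 above the median, but at -0.12 with ribosomal protein genes as the centre, and for q3 over q2 it lay at -0.36. The ligand and its decoy were thus higher in q3 than in q1 by more than the shift, and the receptor was not.

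**Figure D1:**
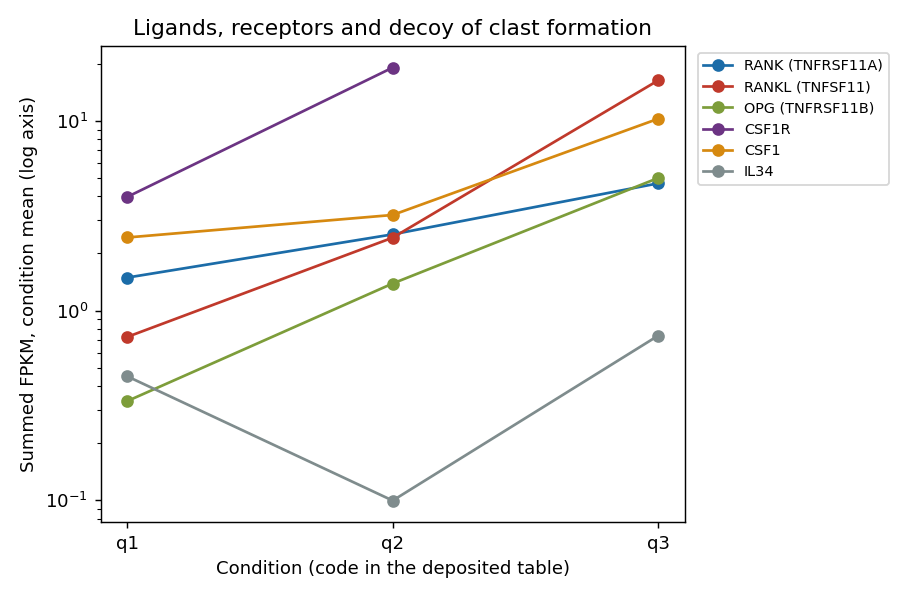
The authors' mean FPKM of the 6 genes, summed over TSS groups, is plotted on a log axis for conditions q1, q2 and q3, with 1 point per condition mean and no error bars because no values per animal were used. RANKL is the first of those listed in q3 (16.3 FPKM) and the fourth in q1 (0.726 FPKM), IL34 stays below 1 FPKM, and CSF1R has no point in q3.

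The ratios of RANKL rest mostly on 1 of its 2 start sites. TNFSF11 has the TSS groups TSS474880 and TSS474881, both tested in each comparison listed. In the authors' table TSS474881 stood at 0.0825 FPKM in q1, 1.16 FPKM in q2 and 12.4 FPKM in q3. TSS474880 stood at 0.644 FPKM in q1, 1.26 FPKM in q2 and 3.98 FPKM in q3. The group that was nearly absent in q1, with 11.4% of the summed FPKM, thus held 47.8% in q2 and 75.6% in q3. Set against the shift of the table, the ratio of q3 to q1 was 5.15 for TSS474881 and 0.55 for TSS474880 on the log2 scale. Without TSS474881, RANKL would lie 0.29 above the median for q2 over q1, 0.41 above it for q3 over q2 and 0.55 above it for q3 over q1, each short of the limit of 1.

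Changes of this kind were not rare in the table. Among 3456 genes with at least 2 tested TSS groups, 9.35% had a TSS group whose share of the summed FPKM differed by 50 percentage points or more between q3 and q1, and in 32.9% the highest TSS group was not the same in q3 and q1. The share of TSS474881 differed by 64.3 percentage points, and 3.96% of these genes had a larger difference. For CSF1 the difference was 5.70 percentage points and 80.8% of these genes had a larger one. Cufflinks divides reads that fit several transcripts of a gene between them, so a share at such low levels is less certain than the sum, and its error is unknown.

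**Figure D2:**
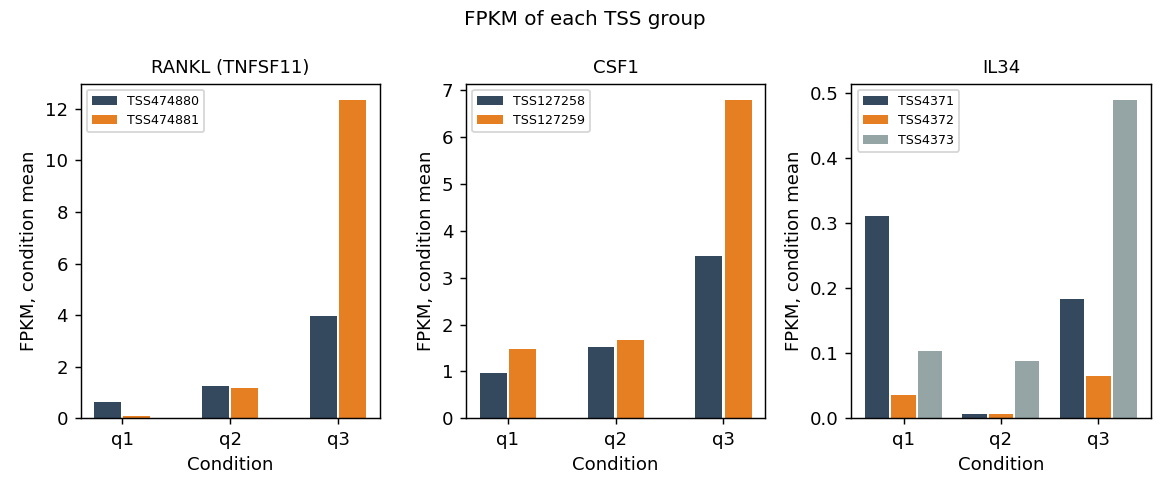
Bars give the authors' mean FPKM of each TSS group of TNFSF11, CSF1 and IL34 in conditions q1, q2 and q3, each panel with its own linear axis from 0. TSS474881 of TNFSF11 stands at 0.0825 FPKM in q1 and 12.4 FPKM in q3, while the groups of CSF1 keep their order and all groups of IL34 stay under 0.5 FPKM.

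Ratios between members within a condition do not depend on the shift. The ratio of RANKL to OPG, which is read in bone as the balance of ligand and decoy, came to 2.18 (q1), 1.74 (q2) and 3.27 (q3). It was thus 1.5 times as high in q3 as in q1 and 1.87 times as high in q3 as in q2, while q2 was at 0.80 of q1. RANKL exceeded OPG in every condition when summed, but this order came from different start sites. TSS474880 alone was at 1.93 (q1), 0.91 (q2) and 0.80 (q3) times OPG, and TSS474881 alone at 0.25 times OPG in q1, 0.83 in q2 and 2.47 in q3. Without TSS474881 the log2 ratio of RANKL to OPG would be -0.33 in q3, against 0.95 in q1.

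Ligand and decoy both gained on the receptor. RANKL was at 0.49 times the FPKM of RANK in q1, at 0.96 times in q2 and at 3.49 times in q3. OPG was at 0.22 times the FPKM of RANK in q1, at 0.55 times in q2 and at 1.07 times in q3. The levels of OPG and RANK in q3, 5.0 and 4.69 FPKM, stand next to each other in the order of the 6 genes, as do RANK and RANKL in q2 at 2.52 and 2.42 FPKM, and whether such neighbours differ cannot be told without a spread. RANK and its ligand need not lie in the same cells, so these ratios describe the captured tissue as a whole.

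CSF1R had the highest level of the 6 genes in both conditions in which it is listed. The authors' mean for CSF1R (TSS6654, chromosome 1 from 342817683 to 342928384) was 3.97 FPKM in q1 and 19.1 FPKM in q2, and its level in q3 was not analysed here. Its ratio of q2 to q1 was 4.81-fold, a log2 ratio of 2.26 that lay 1.58 above the median, and of 11352 genes 3.41% had a larger one. Its FPKM was above that of 94.8% of 16615 genes in q2 and of 85.1% in q1. CSF1R kept a distance of at least 1.39 above the median under each of the centres and pseudocounts tried. The same locus in the authors' table also holds HMGXB3, which had a summed FPKM of 6.36 in q2 and 6.45 in q1. It further holds a gene without a symbol, listed at 0 in both conditions. Whether the shared locus bears on the ratio of CSF1R was not tested.

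CSF1 followed the shift of the table. The authors' mean for CSF1 (XLOC_122736, chromosome 2 from 479207304 to 479219951), summed over its TSS groups, was 2.43 FPKM in q1, 3.19 FPKM in q2 and 10.3 FPKM in q3. Its log2 ratio of q3 to q1 was 2.08, which is the median of tested TSS groups itself, and its place on either side of it changed with the centre, between -0.03 and 0.16. For q2 over q1 CSF1 lay at -0.29 relative to the median and for q3 over q2 at 0.44. The share of TSS127259 in the summed FPKM was 60.6% (q1), 52.3% (q2) and 66.3% (q3), and TSS127258 held the rest. The receptor therefore gained on this ligand, with CSF1R at 5.98 times the FPKM of CSF1 in q2 and 1.64 times in q1.

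IL34, the other ligand of CSF1R, was under 1 FPKM in all conditions. The authors' mean for IL34 (XLOC_002699, chromosome 1 from 708355687 to 708421428), summed over 3 TSS groups that were not tested in either comparison, was 0.450 FPKM in q1, 0.0996 FPKM in q2 and 0.737 FPKM in q3. Its level was lowest in q2 and the highest TSS group was TSS4371 in q1, at 0.310 FPKM, and TSS4373 in q2 and q3, at 0.0871 and 0.489 FPKM. CSF1 was at 5.39 times the FPKM of IL34 in q1, 32.0 times in q2 and 13.9 times in q3, so CSF1 was the more abundant ligand in each condition. IL34 passed no filter at 1 FPKM and is left out of the counts of genes higher or lower. Its log2 ratio of q3 to q1 lay at -1.37 relative to the median, against a value of 0.16 for its TSS group TSS4373 alone, and no direction is read from it.

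**Figure D3:**
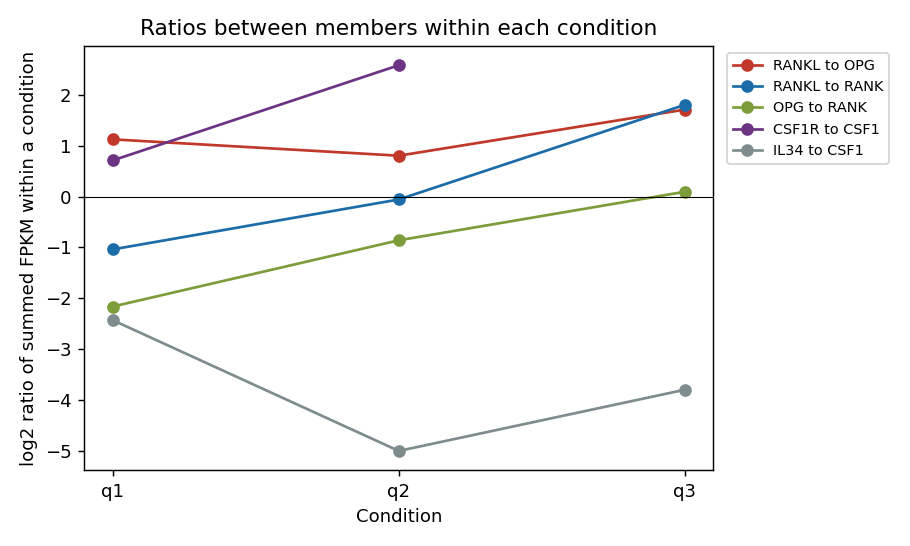
Lines join the log2 ratio of summed FPKM between a pair of members within q1, q2 and q3, from the authors' condition means. RANKL to RANK is at 1.8 in q3 and at -1.04 in q1, RANKL to OPG stays between 0.80 and 1.71, and IL34 to CSF1 lies below -2 throughout.

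Of the 6 members, 5 could be counted for q2 over q1 and 4 for the other comparisons. RANKL, OPG and CSF1R lay at least 1 above the median for q2 over q1, where 8.73% of 11352 genes did, and none lay as far below it, where 16.1% did. For q3 over q2 only RANKL did so, against 11.7% of 9408 genes, and none lay as far below, against 14.4%. For q3 over q1 RANKL and OPG lay above, against 12.3% of 9610 genes, and none lay below, against 25.1%. The comparisons share condition means, so these counts do not add to each other. RANKL and OPG, at 0.726 and 0.333 FPKM in q1, passed the filter of 1 FPKM only through q2 or q3. IL34, at -2.86 relative to the median for q2 over q1, was left out by this filter. With a pseudocount of 1 FPKM, RANKL lay at 0.52, OPG at 0.37 and CSF1R at 1.54 for q2 over q1. For q3 over q1 RANKL and OPG then lay at 1.92 and 0.76. With a limit of 1.5 on the log2 scale, CSF1R alone was left for q2 over q1.

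**Figure D4:**
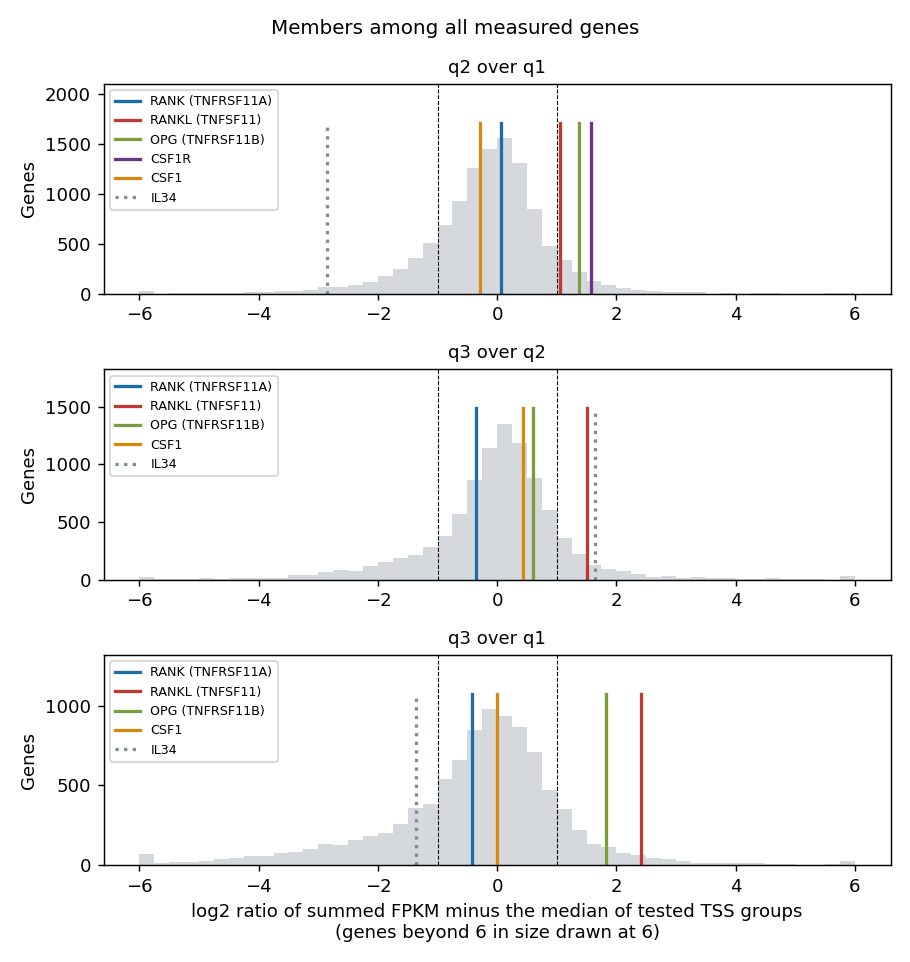
Grey histograms give the number of genes at each log2 ratio against the median of the tested TSS groups, for q2 over q1, q3 over q2 and q3 over q1, with members as coloured lines, IL34 dotted because it is under 1 FPKM, and dashed lines at -1 and 1. RANKL (2.41) and OPG (1.83) lie right of the dashed line for q3 over q1, while RANK (-0.43) and CSF1 (0.00) lie within the bulk.

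Of 23 genes through which RANK signals, 16 had an FPKM of at least 1 and both values for q3 over q1, of which NFATC1 and TRAF5 were higher and MAPK8 and NFKB1 lower, where 12.3% and 25.1% of all genes were, and the list's median was -0.02 on this scale, against -0.16 over all genes. For q3 over q2, IKBKB, SRC and TRAF5 were higher and NFKB1 lower of 16, where 11.7% and 14.4% of all genes were. IKBKB and TRAF5, at 0.210 and 0.709 FPKM in q2, passed the filter of 1 FPKM through q3. With a pseudocount of 1 FPKM, 0 of 16 were higher and 1 lower. NFATC1, the transcription factor that drives clast differentiation, had 3.46 FPKM in q1, 12.8 FPKM in q2 and 36.6 FPKM in q3, and lay 1.32 above the median for q3 over q1. JUN, a partner of FOS in the AP-1 factor that RANK induces, had 9.15 FPKM in q1, 9.41 FPKM in q2 and 38.4 FPKM in q3, at -0.01 relative to the median. PPP3CA, a catalytic subunit of the calcineurin phosphatase that activates NFATC1, had 5.73 FPKM in q1, 11.5 FPKM in q2 and 18.7 FPKM in q3, at -0.37. TRAF6, the adaptor that binds RANK, stayed under 1 FPKM, with 0.029 in q1, 0.272 in q2 and 0.528 in q3.

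Genes downstream of CSF1R had 1 member higher and 1 lower among the 10 measured for q3 over q1 (12.3% and 25.1% of all genes), with a median of 0.35 relative to that of tested TSS groups, against -0.16 over all genes. The higher was SPI1 (PU.1), a transcription factor of the myeloid lineage that binds the promoter of Csf1r in mouse, with 2.21 FPKM in q1, 11.7 FPKM in q2 and 38.0 FPKM in q3, which lay 2.03 above the median. SPI1 was also the only member of this list counted as higher for q2 over q1, at 1.72, and PIK3R1 the only one counted as lower, at -1.15. PIK3R1, a regulatory subunit of PI3 kinase, had 13.7 FPKM in q1, 9.86 FPKM in q2 and 67.4 FPKM in q3, and AKT1, a kinase activated downstream of it, 10.8 FPKM in q1, 18.5 FPKM in q2 and 57.1 FPKM in q3. They lay at 0.22 and 0.32 relative to the median for q3 over q1, while PIK3R1 was counted as higher for q3 over q2, at 1.52.

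RANK acts together with receptors that signal through adaptors with an ITAM motif. Of 10 genes of this co-stimulation, 5 were measured for q3 over q1, with OSCAR and SYK higher and TEC lower, where 12.3% of all genes were higher and 25.1% lower. OSCAR, a collagen receptor of clasts, had 11.9 FPKM in q1, 46.5 FPKM in q2 and 126 FPKM in q3, and lay 1.33 above the median for q3 over q1. The adaptors TYROBP (DAP12), with 13.2 FPKM in q1, 26.9 FPKM in q2 and 69.4 FPKM in q3, and FCER1G, with 3.28, 12.9 and 20.0 FPKM in q1, q2 and q3, lay 0.32 and 0.53 above it. For q2 over q1, the comparison in which CSF1R is listed, FCER1G, OSCAR and SYK were higher and TEC lower among 6 measured, where 8.73% and 16.1% of all genes were. SYK, at 0.748 FPKM in q1, passed the filter of 1 FPKM through q2. With a pseudocount of 1 FPKM, 2 of 6 were higher and 0 lower. TREM2, a partner of TYROBP, was listed at 0.309 FPKM in q1, at 0 in q2 and at 0.118 in q3.

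Of 20 genes that induce RANKL in stromal cells 7 were measured for q3 over q1. None was higher and OSMR was lower, at -1.48, where 12.3% and 25.1% of all genes were, and the median was -0.08. PTH1R, the receptor through which parathyroid hormone induces RANKL, had the highest level, with 84.3 FPKM in q1, 139 FPKM in q2 and 591 FPKM in q3, 0.73 above the median for q3 over q1. RUNX2, a transcription factor of osteoblasts and hypertrophic chondrocytes, had 9.66 FPKM in q1, 18.4 FPKM in q2 and 57.9 FPKM in q3, and IL11RA, a cytokine receptor, 9.76 FPKM in q1, 8.01 FPKM in q2 and 32.9 FPKM in q3. They lay at 0.50 and -0.33. VDR, the vitamin D receptor, was listed at 0 in q1 and q2, which does not show absence, since COL2A1 and COL1A2 were listed at 0 in these conditions too.

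Of the partners of RANKL and OPG, 4 were measured for each comparison and none was counted as higher or lower. Over all genes, 8.73% to 12.3% were higher and 14.4% to 25.1% lower, and 4 genes are too few to set against these shares. LGR4, a further receptor of RANKL in mouse, had 1.67 FPKM in q1, 2.81 FPKM in q2 and 11.2 FPKM in q3, 0.67 above the median for q3 over q1. MMP14, a protease that sheds RANKL from the membrane, had 13.1 FPKM in q1, 17.4 FPKM in q2 and 57.2 FPKM in q3, at 0.05, and ADAM17, another sheddase, 1.65 FPKM in q1, 1.47 FPKM in q2 and 3.55 FPKM in q3, at -0.97. Among 14 negative regulators of clast formation, 6 were measured for q3 over q1, with TNFAIP3 higher and WNT5A lower (12.3% and 25.1% of all genes). TNFAIP3 (A20), an inhibitor of NF-kB signalling, had 0.704 FPKM in q1, 3.11 FPKM in q2 and 6.55 FPKM in q3, 1.14 above the median. ZFP36, which destabilizes cytokine mRNA, had 2.72 FPKM in q1, 6.81 FPKM in q2 and 12.6 FPKM in q3, at 0.14.

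The relatives of the members by family were mostly low. Of 38 other ligands and receptors of the TNF families, 31 are in the table and 10 were measured for q3 over q1. Of these CD40, RELT, TNFRSF12A and TNFRSF18 were higher and EDAR, LTB, TNFRSF17 and TNFSF12 lower, where 12.3% and 25.1% of all genes were, and the median was -0.63. The higher genes passed the filter of 1 FPKM only through q3, with 0.0549, 0.0351, 0.0446 and 0.418 FPKM in q1. With a pseudocount of 1 FPKM, 0 of 10 were higher and 3 lower. The highest of the whole list with all values was TNFRSF19, with 3.52 FPKM in q1, 3.59 FPKM in q2 and 11.7 FPKM in q3. Next came TNFRSF18, with 0.418, 0.682 and 5.54 FPKM in q1, q2 and q3, and TNFSF12, with 1.05, 2.84 and 2.04 FPKM. RANKL with 16.3 FPKM in q3 thus exceeded each of these genes there. Its ratio relative to the median, 2.41, stood against 1.65 for TNFRSF18, -0.35 for TNFRSF19 and -1.12 for TNFSF12. LTBR and TNFRSF1A had no summed value for q3 here. LTBR had 6.34 FPKM in q1 and 15.3 FPKM in q2, and TNFRSF1A 3.34 FPKM in q1 and 5.70 FPKM in q2. Both stood above RANKL, which had 0.726 FPKM in q1 and 2.42 FPKM in q2. TNF itself was at 0.210 FPKM or below in each condition.

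Among receptor kinases of the class of CSF1R, PDGFRA had 23.9 FPKM in q1, 31.3 FPKM in q2 and 84.6 FPKM in q3, and KIT 1.87, 1.40 and 3.28 FPKM in q1, q2 and q3. For q2 over q1, where CSF1R lay 1.58 above the median, PDGFRA lay at -0.29 and KIT at -1.10. PDGFRB, a further kinase of this class, had 2.08 FPKM in q2 and 1.33 FPKM in q1, at -0.04. Of the other colony-stimulating factors and their receptors only CSF3R was measured for q3 over q1, with 0.0826 FPKM in q1, 0.220 FPKM in q2 and 2.67 FPKM in q3. CSF3, which acts on neutrophils, was listed at 0 in all conditions. Over the 9 lists together, 11 of 61 measured genes were higher for q3 over q1 (18.0%) and 11 lower (18.0%), where 12.3% and 25.1% of all genes were. Of the higher genes, CD40, CSF3R, RELT, SYK, TNFAIP3, TNFRSF12A, TNFRSF18 and TRAF5 were under 1 FPKM in q1 and passed the filter through q3. With a pseudocount of 1 FPKM, 6 of 61 were higher and 8 lower, and the share over all genes was not computed at that setting.

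**Figure D5:**
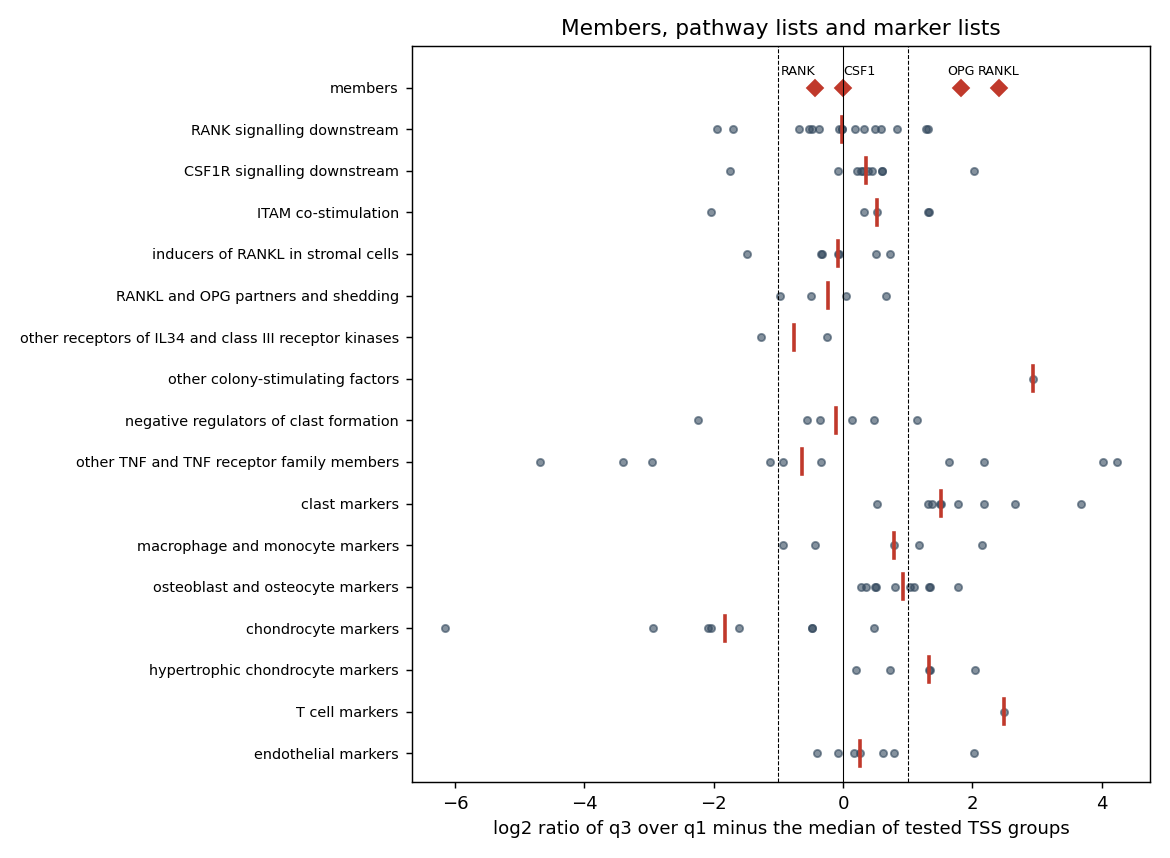
Points give the log2 ratio of q3 over q1 against the median of the tested TSS groups for each gene with an FPKM of at least 1 in q3 or q1, by list, with list medians as red bars, members as red diamonds and dashed lines at -1 and 1. RANKL (2.41) and OPG (1.83) lie on the side of the clast markers (median 1.52). Other lists lie there too, among them hypertrophic chondrocyte (1.33), osteoblast and osteocyte (0.92) and macrophage and monocyte markers (0.79). The lists of RANK signalling (-0.02) and inducers of RANKL (-0.08) lie around 0.

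Markers of several cell types differed between the conditions along with the members, and in such bulk tissue more cells of a type and more RNA per cell cannot be told apart. The counts of markers stand beside 12.3% of all genes higher and 25.1% lower for q3 over q1, and 8.73% higher and 16.1% lower for q2 over q1. Of 9 measured clast markers 8 were higher for q3 over q1 and none lower, with a sum of 1245 FPKM in q1, 4284 FPKM in q2 and 20225 FPKM in q3. Most of it came from CTSK, ACP5 and MMP9, with 12823, 4403 and 2813 FPKM in q3 against 671, 368 and 194 FPKM in q1. The study chose these 3 genes from these samples, so that the list is not independent evidence. CALCR and TCIRG1, also in the list, were listed at 0 in q1 and q2 and had no value for q3 here, so they were not counted. In the ratio of q2 to q1, 5 of the 9 measured clast markers were higher, namely ATP6V0D2, CTSK, NFATC1, OCSTAMP and OSTM1, and none lower. OCSTAMP, at 0.155 FPKM in q1, passed the filter of 1 FPKM through q2 or q3. With a pseudocount of 1 FPKM, 3 of 9 were higher for q2 over q1 and 8 of 9 for q3 over q1. Macrophage and monocyte markers had LAPTM5 and PTPRC higher of 5 measured, where PTPRC, at 0.447 FPKM in q1, passed the filter through q3. Their sum over 6 genes was 17.2 FPKM in q1, 20.7 FPKM in q2 and 90.0 FPKM in q3, which includes CD68 at under 1 FPKM. Their highest members C1QC, C1QA and LAPTM5 had 29.7, 18.9 and 29.7 FPKM in q3 against 4.06, 8.47 and 3.11 FPKM in q1. For q2 over q1, where CSF1R was counted as higher, MRC1 was higher and C1QA, CD14 and MSR1 lower of 7 measured.

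Cells known to make RANKL were also represented. Of 10 measured osteoblast and osteocyte markers 5 were higher for q3 over q1 (12.3% of all genes) and none lower, with sums of 1681 FPKM in q1, 6522 FPKM in q2 and 13974 FPKM in q3, led by BGLAP, SPP1 and COL1A1 with 3980, 3610 and 3422 FPKM in q3 against 441, 339 and 633 FPKM in q1. Of these 10 markers, 5 were higher for q2 over q1, namely BGLAP, DMP1, IBSP, SOST and SPP1. Of 5 measured hypertrophic chondrocyte markers 3 were higher for q3 over q1, ALPL, COL10A1 and SPP1, and IHH was under 1 FPKM throughout. The sums over this list were 498 FPKM in q1, 1806 FPKM in q2 and 4756 FPKM in q3. ALPL and SPP1 are also in the osteoblast and osteocyte list, so these lists are not independent. SPP1 alone held 3610 FPKM of the sum in q3. COL10A1, in the hypertrophic list only, had 2.36, 6.25 and 41.0 FPKM in q1, q2 and q3. The T cell markers CD3D, CD3E and CD3G stayed under 1 FPKM and CD8A was listed at 0 in each condition. LAT, the only marker of this list measured for q3 over q1, was higher, at 2.49 above the median. It was also higher for q2 over q1 and for q3 over q2, and made up 41.4 of a sum of 46.7 FPKM in q3. CD247 had 0, 0.286 and 3.49 FPKM in q1, q2 and q3 and was higher for q3 over q2 (11.7% of all genes), having passed the filter through q3. Endothelial markers, led by PECAM1, CDH5 and EMCN, had TIE1 higher of 7 measured for q3 over q1, with sums of 15.1 FPKM in q1, 27.5 FPKM in q2 and 81.6 FPKM in q3. TIE1, at 0.598 FPKM in q1, passed the filter through q3. The part of these cells in the ratios of RANKL, OPG and CSF1R was not tested.

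Most chondrocyte markers lay below the median of tested TSS groups for q3 over q1 and for q2 over q1. Of 8 measured for q3 over q1, 5 were lower (25.1% of all genes) and none higher, with a median of -1.83 relative to that of tested TSS groups. In the ratio of q2 to q1, where RANKL, OPG and CSF1R were all counted as higher, 8 of 10 were lower (16.1% of all genes) and none higher, with a median of -1.84, while the median for q3 over q2 was 0.10. Their sum was 769.9 FPKM in q1, 424 FPKM in q2 and 1174 FPKM in q3. COL9A2, COL11A2 and COL11A1 had 373, 383 and 264 FPKM in q3 against 363, 126 and 87.0 FPKM in q1, so cartilage was present in both, although COL2A1 was listed at 0 in q1 and q2. The part of cartilage RNA in the ratios of the members was not tested.

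The genes whose pattern was most like that of each member were found by the distance between their log2 ratios of q2 to q1 and of q3 to q1, over 3 condition means and 6914 genes with a symbol and at least 1 FPKM in every condition. RANKL, OPG and IL34 did not meet this filter themselves, with 0.726, 0.333 and 0.450 FPKM in q1. Genes as low as these in q1 were thus not searched, and the numbers of neighbours depend on that. Of the genes searched, 3 lay at a distance under 0.25 from RANKL. Among them were PIK3AP1, an adaptor of PI3 kinase, at 0.16 and SMPD1, the acid sphingomyelinase of lysosomes, at 0.22. OPG had 22 genes within this distance, the nearest being ATP6V1B2, a subunit of the vacuolar proton pump, at 0.04, IBSP, the bone sialoprotein of osteoblasts, at 0.05 and TBCC, a tubulin folding cofactor, at 0.07. IBSP had 123 FPKM in q1, 519 FPKM in q2 and 1793 FPKM in q3. RANK and CSF1 had 293 and 340 genes within the same distance, led by TUBB, TYW3 and CBX1 for RANK and by TMEM30A, OTUD4 and EPC2 for CSF1. IL34 had none, its nearest being SNORA23, SNORND104 and METTL4 at 0.40 to 0.54. With only 3 means such likeness is a description of the values.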

How the data were processed

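Tissue was captured by laser from opossums at P16, P18 and P20 (3 at each stage), and the amplified RNA was sequenced. The submitters' notes on processing list TopHat, Cufflinks and Cuffdiff, and no source used here gives their versions, the genome build or the scaling of libraries. The FPKM values are condition means per TSS group that the authors deposited. The authors' own comparisons, 5 columns with fold change, test statistic, p-value, q-value and call, and a shorter table of called tests were not used. Values of q3 were used up to identifier TSS5013 in text order, where the table used here ends. Depth per sample is unknown.

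The FPKM of all TSS groups of a gene were added. Log2 ratios without a pseudocount were centred on the median over TSS groups that Cuffdiff tested with both values above 0 (for q3 over q2, those tested in both listed comparisons). Genes with at least 1 FPKM in either condition were counted at a log2 distance of 1, which is 2-fold. No test across samples could be made. The members and the 16 gene lists were chosen with earlier results of these data known. Beside the members, the text names the 3 genes of each list with the highest mean FPKM over listed conditions and the 3 nearest in pattern to each member, except 2 genes that are not reported here, and other genes were named after their values were seen. The calculation of ratios was checked on simulated data in Python 3.11.15 with numpy 2.4.6, pandas 2.3.3 and matplotlib 3.10.9. The simulation used tested TSS groups only, with large known changes and little noise. It therefore does not bear on the error of ratios at low FPKM. Alternatives covered the centre, pseudocounts, the filter, the limit and the choice of TSS groups.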

Additional observations from a re-analysis of the deposited data

How the results depend on the processing

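Another centre (tested TSS groups averaging 1 FPKM or more, genes, ribosomal protein genes or, chosen after seeing the data, one common set of TSS groups) moved no ratio of a member by more than 1.5 times. A pseudocount of 1 FPKM brought OPG to 0.37 for q2 over q1 and 0.76 for q3 over q1, IL34 to -0.87 for q2 over q1 and -0.35 for q3 over q2, the log2 ratio of RANKL to OPG in q1 to 0.37, and that of IL34 to CSF1 to -1.24 in q1, to -1.93 in q2 and to -2.70 in q3. A pseudocount of 0.1 FPKM brought IL34 to -2.12 for q2 over q1 and 0.85 for q3 over q2, and IL34 to CSF1 in q2 to -4.04. These settings shrink ratios of low values by construction. With the highest TSS group of a gene alone, RANKL lay at 3.13 for q2 over q1, 2.17 for q3 over q2 and 5.15 for q3 over q1, IL34 at -0.93 for q2 over q1 and 0.16 for q3 over q1, and IL34 to CSF1 at -3.83 in q1 and -4.26 in q2. RANKL to OPG then turned to -2.01 in q1 and -0.26 in q2. Without TSS474881, chosen after seeing the data, RANKL lay at 0.29, 0.41 and 0.55 for q2 over q1, q3 over q2 and q3 over q1, and RANKL to OPG at -0.14 in q2 and -0.33 in q3, both turned round. Leaving out TSS474881 thus ended the count of RANKL as higher in all comparisons.

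A limit of 1.5 left 1 member higher for q2 over q1, and a limit of 0.5 gave 2 for q3 over q2. With no filter on FPKM, IL34 added 1 lower for q2 over q1 and for q3 over q1, and 2 were higher for q3 over q2. Of the 9 pathway lists, 6 genes higher and 9 lower of 67 for q2 over q1 became 13 and 20 at a limit of 0.5. With no filter they became 16 and 16 of 106, and 2 of 67 were lower with a pseudocount of 1. For q3 over q2, 10 higher and 6 lower of 61 became 3 higher with a pseudocount of 1 and 10 lower at a limit of 0.5. With no filter 17 of 81 were lower. For q3 over q1, 11 and 11 of 61 became 19 and 17 at a limit of 0.5, with 6 higher with a pseudocount of 1. Without the filter 25 of 82 were lower. Removing the filter thus also raised the number of genes counted. Shares over all genes were not computed at these settings, so the counts stand without a background.

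Leaving out replicates was not run, because it needs values per animal. No paired analysis was possible because the columns hold condition means that carry no replicate number.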
